A study of Mus musculus with 8 samples.

Results

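The subject is 10 Krüppel-like factor genes, Klf2, Klf3, Klf4, Klf5, Klf6, Klf7, Klf9, Klf10, Klf11 and Klf13, taken by name from a count table of 55276 gene symbols. All 10 were in the table and all 10 passed the filter on low counts, which left 17344 genes. The other 7 Klf genes of the table were kept as a comparison list. The cells were esophageal epithelial cells of C57BL6 mice aged 14 to 15 weeks; the labels name no genotype and no agent other than the dye. They were sorted live, as DAPI-negative cells with integrin beta-1 on their surface, by the brightness of Cyto-ID, a dye of autophagic vesicles. The dim fraction is Cyto-ID Low and the bright fraction Cyto-ID High. Each of 2 female and 2 male animals (Female1, Female2, Male1, Male2) gave 1 bulk RNA-seq library of each fraction, so there were 4 libraries per fraction and 8 in all.

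Krüppel-like factors are transcription factors that bind GC-rich and CACCC-containing DNA through 3 zinc fingers near the carboxyl end, and they differ in the activating or repressing domains outside these fingers. Klf4 and Klf5 are the members best known in stratified epithelium. Klf4 is linked there to exit from the cell cycle and differentiation above the basal layer, and Klf5 to proliferation of basal cells. Several members are induced rapidly by growth factors, shear or tissue handling.

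The libraries held 26285150 to 29301054 counts each. Levels are given as CPM, the count relative to the library total, after edgeR's TMM scaling (a trimmed mean of log ratios between libraries), and a fold change is Cyto-ID High minus Cyto-ID Low on the log2 scale. A gene was called when edgeR's quasi-likelihood test with sex as a covariate gave a Benjamini-Hochberg adjusted p under 0.05 over all genes. The labelled cell type was checked with 8 markers of basal and 8 of suprabasal keratinocytes. The summed basal markers ran from 20628 to 24516 CPM in Low and from 2721 to 4390 in High. The summed suprabasal markers ran from 8593 to 25426 CPM in Low and from 140092 to 240579 in High. All 16 markers were called, the basal ones lower and the suprabasal ones higher, and the part of this layer difference in the Klf results was not tested. The protocol calls both fractions basal cells, yet the basal keratin gene Krt5 changed by −3.38 and Itgb1, the gene of the sorted surface protein, by −2.44, while the suprabasal keratin gene Krt4 changed by 3.75. In bulk RNA, a different share of cells of a type and a different amount of transcript per cell cannot be told apart.

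The sequence before the start site is shown for 3 members, Klf4, which rose, and Klf9 and Klf13, which fell side by side. Of the 8 members with an entry in the RefSeq table, these 3 had no annotated exon in the window. Each window is the 250 bases before the RefSeq start on GRCm38.p6, read 5′ to 3′ on the gene's strand. Capitals mark the letters CACCC (the motif for which the family is named) and GGGCGG (the GC box), searched on both strands with overlapping matches counted.
Klf4, chr4:55532476-55532725, minus strand: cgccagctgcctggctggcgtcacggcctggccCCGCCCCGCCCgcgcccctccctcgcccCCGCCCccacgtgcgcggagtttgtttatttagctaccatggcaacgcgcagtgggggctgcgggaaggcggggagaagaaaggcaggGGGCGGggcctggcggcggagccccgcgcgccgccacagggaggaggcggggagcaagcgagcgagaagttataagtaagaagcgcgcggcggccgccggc
Klf9, chr19:23140976-23141225, plus strand: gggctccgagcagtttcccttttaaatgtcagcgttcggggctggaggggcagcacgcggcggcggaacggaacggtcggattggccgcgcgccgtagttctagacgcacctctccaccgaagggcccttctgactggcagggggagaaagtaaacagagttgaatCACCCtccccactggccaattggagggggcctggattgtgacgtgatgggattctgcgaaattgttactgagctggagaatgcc
Klf13, chr7:63938916-63939165, minus strand: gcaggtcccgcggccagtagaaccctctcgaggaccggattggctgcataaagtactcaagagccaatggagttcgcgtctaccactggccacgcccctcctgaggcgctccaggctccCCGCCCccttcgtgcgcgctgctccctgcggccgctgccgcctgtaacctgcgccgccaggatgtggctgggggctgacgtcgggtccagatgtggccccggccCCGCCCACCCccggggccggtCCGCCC

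The window of Klf4 held 4 matches to GGGCGG and 0 to CACCC. That of Klf9 held 0 matches to GGGCGG and 1 to CACCC, and that of Klf13 held 3 and 1, with 1 GGGCGG match sharing letters with the CACCC match. Among the 250-base windows of all 32851 promoters in the RefSeq table, 32.7% held at least 1 GGGCGG and 52% at least 1 CACCC. At least 3 GGGCGG matches, as for Klf4 and Klf13, were held by 8.47%. The G and C content was 74.0% for Klf4, 59.6% for Klf9 and 71.6% for Klf13, beside a median of 52.4% over all promoters. Klf9 and Klf13 moved in the same direction with different motif content, and a link of motif content to the change was not tested. A match is a run of letters and not a shown binding site.

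Of the 10 members 2 were called higher in Cyto-ID High, Klf3 and Klf4, and 5 were called lower, Klf2, Klf6, Klf9, Klf11 and Klf13. Klf5, Klf7 and Klf10 were not called. Over all tested genes 48.7% were called, 23.4% higher and 25.3% lower, so the share of members called is to be read against a comparison in which nearly every second gene was called. The median log2 fold change of the members was −0.39, beside −0.09 for all tested genes. The CPM of the 4 High libraries did not overlap those of the 4 Low libraries for Klf2, Klf3, Klf4, Klf9 and Klf13, which is 5 of 10, where 48.6% of all tested genes did not overlap.

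**Figure D1:**
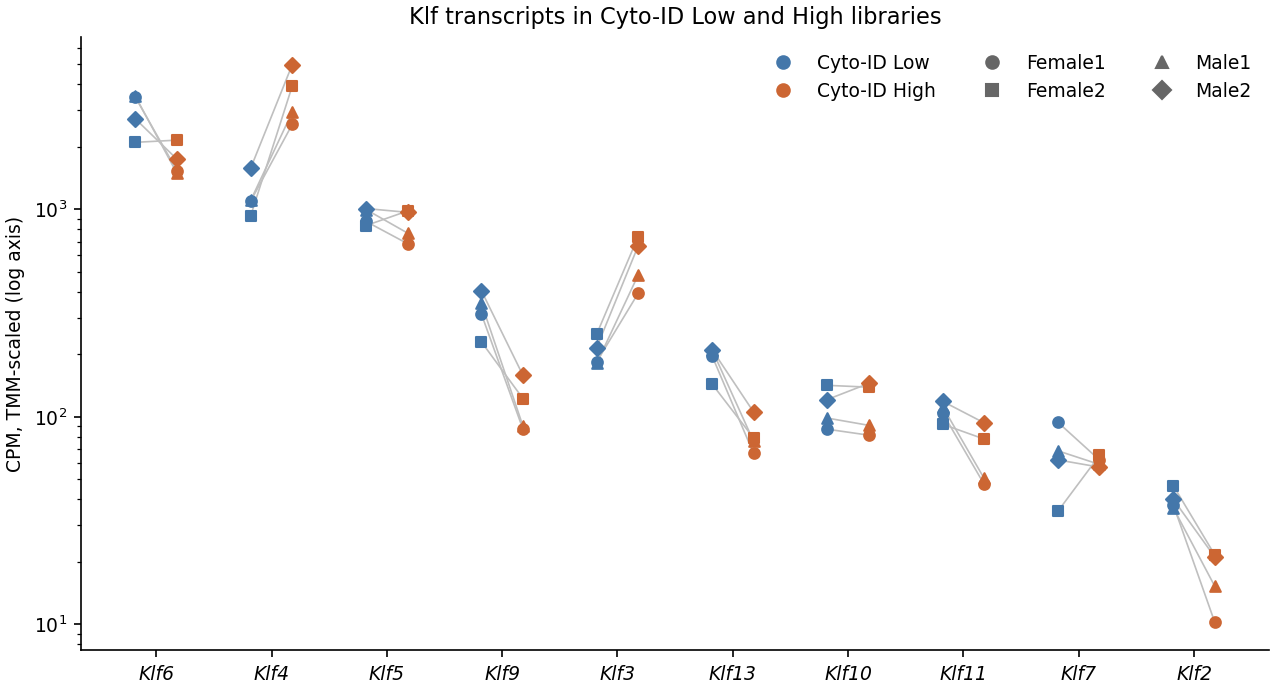
CPM of the 10 Klf genes (log axis) in each library, with Cyto-ID Low at the left and Cyto-ID High at the right of each gene, symbols for the 4 animals and grey lines joining the 2 libraries of an animal. Klf3 and Klf4 were higher in High in 4 of 4 animals, and Klf2, Klf9, Klf11 and Klf13 were lower in 4 of 4.

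The scaling of the libraries decides where no change lies in this comparison. With total counts as the only scaling, the median log2 fold change of all tested genes shifted by −0.55, and 12.6% of genes were called higher and 49.1% lower. Of the members 2 were then higher and 7 lower, Klf5 and Klf10 being added to the lower ones. Relative to the median of all genes the values hardly moved. Klf4 lay 1.71 above that median under TMM and 1.66 above it under total counts, Klf9 lay at −1.40 and −1.45, and Klf5 at −0.03 and −0.07.

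**Figure D2:**
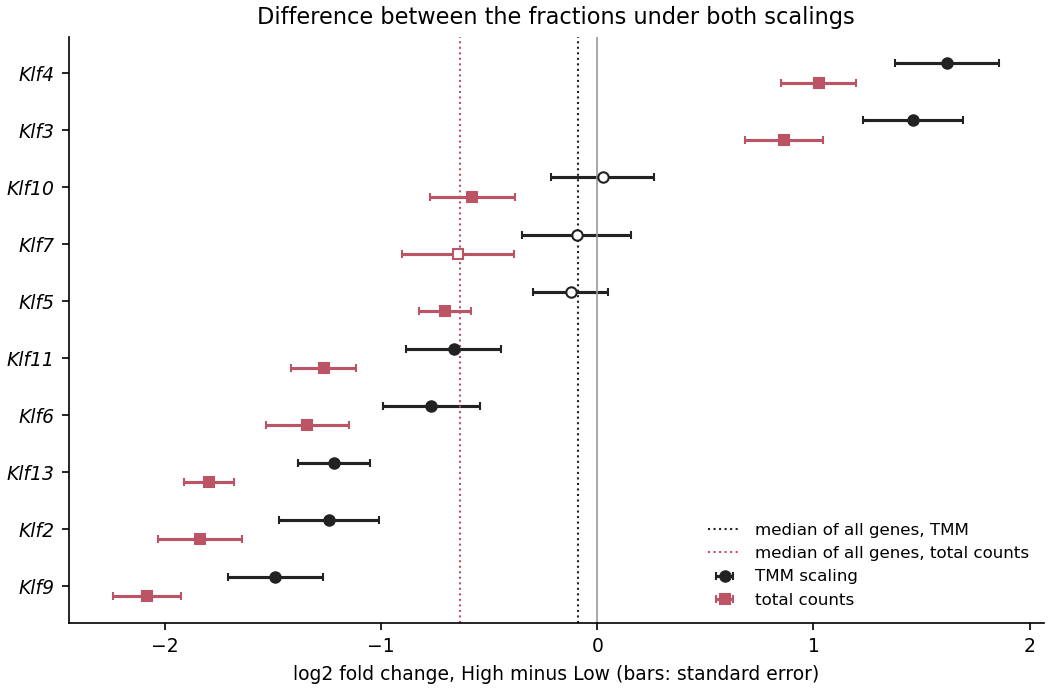
Log2 fold change of each Klf gene, High minus Low, with its standard error, under TMM scaling (black circles) and total counts (red squares). Filled symbols passed the adjusted threshold and dotted lines mark the median of all tested genes, −0.09 under TMM and −0.64 under total counts. The order of the members was the same under both.

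Klf4, the activator and repressor tied to epithelial differentiation, had the largest increase of the 10 in the fit to all 8 libraries, close to that of Klf3, which was larger without the Low library of Female2 (1.57 against 1.56). Its level was 1098, 933, 1107 and 1583 CPM in Low (Female1, Female2, Male1, Male2) and 2568, 3935, 2943 and 4985 CPM in High. The lowest High library thus lay above the highest Low library. Mean levels of 1180 ± 280 and 3608 ± 1084 CPM (SD, n = 4 per fraction) gave an increase of 1.62 (SE 0.24, adjusted p 0.000419), or 3.07-fold. The increase was smallest in Female1, at 1.23, and greatest in Female2, at 2.08.

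Klf5, its counterpart in basal cell proliferation, did not pass. It was at 875, 836, 998 and 1009 CPM in Low (Female1, Female2, Male1, Male2) and at 683, 982, 769 and 968 CPM in High. The groups overlapped, with Female2 higher in High and the other 3 animals lower. The log2 fold change was −0.12 (SE 0.17, adjusted p 0.606). Under total counts the levels were 1127 ± 51.6 CPM for Low and 692 ± 59.9 for High (SD, n = 4 per fraction), with a change of −0.71 and an adjusted p of 0.00105, in a range of 0.00105 to 0.945 over all alternatives.

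The ratio of 2 genes within a library does not depend on how libraries are scaled. With 0.5 added to each count, as in every ratio given here, the count of Klf4 was 1.11 to 1.57 times that of Klf5 in the 4 Low libraries and 3.76 to 5.15 times in the 4 High libraries. The log2 ratio rose by 1.73 ± 0.11 (SD of the 4 animals' differences) from 0.32 ± 0.23 to 2.05 ± 0.21 (SD, n = 4 each; exact permutation test, two-sided, p 0.0286, Benjamini-Hochberg adjusted p 0.0286 over 4 ratios). This is the smallest p that 4 against 4 libraries can give. With the signs permuted within animals, as the pairing asks, each of the 4 ratios had an exact p of 0.125, the smallest that 4 pairs can give, so no ratio could pass in the paired test. The difference between animals in this ratio was small beside the difference between fractions, although the Klf4 change itself ran from 1.23 to 2.08.

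**Figure D3:**
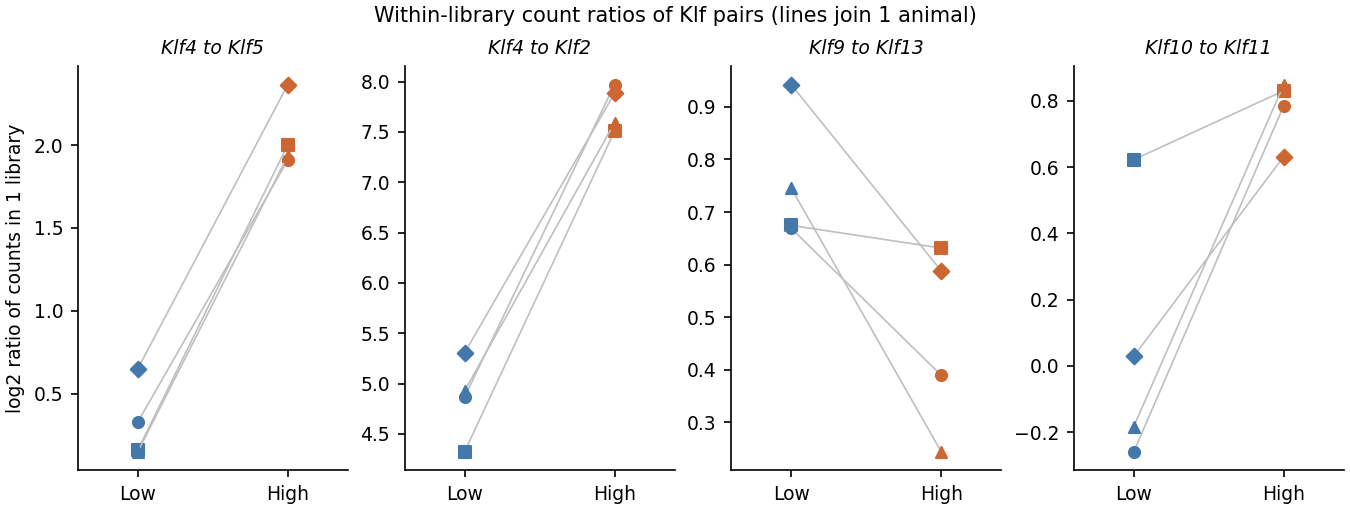
Log2 ratio of the counts of 2 Klf genes within each library, Low against High, with symbols for the animals and lines joining the 2 libraries of an animal. The vertical axes differ between panels. The ratios of Klf4 to Klf5, Klf4 to Klf2 and Klf10 to Klf11 rose and that of Klf9 to Klf13 fell in 4 of 4 animals.

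Likeness over the 8 libraries was measured by Pearson correlation of log2 CPM among 10008 genes with a mean of at least 5 CPM. Genes with names beginning Gm and a digit or ending in Rik were left out. The genes most like Klf4 were Ovol1 (0.998), Tmbim6 (0.997) and Scamp2 (0.995). Those most like Klf5 were Nipsnap3b (0.966), Hnrnpf (0.964) and Gtf3c2 (0.963). These points share the sort and the scaling, and the correlations are given as a description. Ovol1, a zinc-finger factor of epithelial differentiation, rose by 2.16 (adjusted p 0.000216).

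Klf6, a widely expressed factor known as a fast responder to injury, was the most abundant member in Low. It was at 3469, 2105, 3502 and 2728 CPM in Low (Female1, Female2, Male1, Male2) and at 1539, 2157, 1492 and 1746 CPM in High. Female2 was level between the fractions, at a log2 difference of 0.04, while Female1 and Male1 differed by −1.17 and −1.23 and Male2 by −0.64, and the groups overlapped through Female2. This overlap depended on the scaling. Under total counts Female2 differed by −0.68, and Low, at 2742 to 4273 CPM, did not overlap High, at 1185 to 1706 CPM. Klf6 was called lower with a log2 fold change of −0.77 (SE 0.22, adjusted p 0.0174). Without the High library of Male1 the change was −0.68 with an adjusted p of 0.0522. The call was also lost without both libraries of Female1 (adjusted p 0.0755), Male1 (0.0789) or Male2 (0.0645). Its adjusted p ran from 0.000378 to 0.363 over all alternatives.

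Klf7, the nearest relative of Klf6 and known from neurons, was not called. Its Low libraries spread from 35.1 CPM in Female2 through 62.0 in Male2 and 68.6 in Male1 to 94.1 in Female1, a range of 2.68-fold. Its High libraries lay between 57.2 and 65.1 CPM, a range of 1.14-fold. Under total counts the High libraries spread more widely, from 38.8 to 58.4 CPM, and the Low ones from 45.7 to 116. With TMM scaling the log2 fold change was −0.096 (SE 0.25, adjusted p 0.794), and without the Low library of Female1 it was 0.19. In the annotation 39.3% of the exon length of Klf7 is overlapped by Gm26649 on the other strand, and since strandedness is not given in the sources used here, the reads of Klf7 are uncertain.

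Klf2 is the member best known from endothelium and resting lymphocytes. It had the lowest CPM of the 10 in every library but Low Female2, where Klf7 was lower, with 1172 to 1697 counts in the Low libraries and 265 to 496 in the High libraries. Its level was 37.7, 46.7, 36.4 and 40.1 CPM in Low (Female1, Female2, Male1, Male2) and 10.2, 21.6, 15.3 and 21.1 CPM in High. No High library reached a Low one. The means were 40.2 ± 4.6 and 17.04 ± 5.38 CPM (SD, n = 4 per fraction), a decrease called at −1.24 (SE 0.23, adjusted p 0.00164). The count of Klf4, a close relative with much the same DNA-binding fingers, was 19.996 to 39.5 times that of Klf2 in Low and 182 to 251 times in High. That log2 ratio rose by 2.88 ± 0.31 (SD, n = 4 animals; exact permutation test, two-sided, p 0.0286, adjusted over the 4 ratios 0.0286).

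Since Klf2 marks other cell types too, their markers were measured beside it. The 8 endothelial markers summed to 16.2 to 30.6 CPM in Low (median 23.9) and to 3.14 to 38.2 CPM in High (median 18.1), and 0 of the 8 were called. The 9 leukocyte markers summed to 53.9 to 88.2 CPM in Low and to 8.95 to 90.0 CPM in High. Of the 7 tested, 1 was called, Cd52, which rose by 0.93 (adjusted p 0.0189) under TMM and was not called under total counts (0.39, adjusted p 0.300). Pecam1, a defining endothelial gene, had 6.48 ± 2.03 CPM in Low against 5.08 ± 4.22 in High (SD, n = 4 per fraction; adjusted p 0.583). Kdr was at 0 in the High library of Male2, and Cd3e or Cd79a was at 0 in the High libraries of Female2, Male1 and Male2. The 7 fibroblast markers summed to 382 to 542 CPM in Low (median 456) and to 55.4 to 472 CPM in High (median 250.1), and 2 of the 7, Dcn and Fbln1, were called lower, where 25.3% of all genes were. The part of other cell types in the Klf2 difference was not tested.

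**Figure D4:**
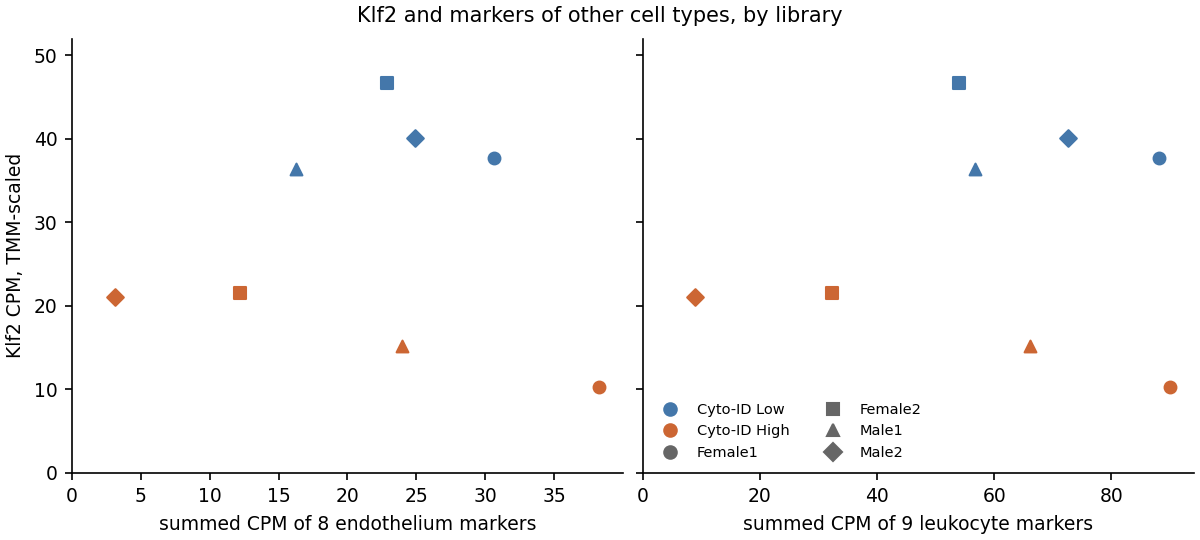
Klf2 level in each library against the summed CPM of the 8 endothelial markers (left) and the 9 leukocyte markers (right), coloured by fraction with symbols for animals. The 4 Low libraries lie between 36.4 and 46.7 CPM of Klf2 and the 4 High libraries between 10.2 and 21.6, while the marker sums of the fractions overlap.

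Klf3 belongs with Klf8 and Klf12 to the repressors that bind the CtBP corepressors. Klf3 was at 184, 250.5, 181 and 216 CPM in Low (Female1, Female2, Male1, Male2) and at 394, 740, 483 and 668 CPM in High. Every High library was above every Low one, and the increase was 1.46 (SE 0.23, adjusted p 0.000606) or 2.75-fold. Klf12 had 2.28 ± 0.72 CPM in Low against 23.5 ± 5.5 in High (SD, n = 4 per fraction), an increase of 3.37 (SE 0.26, adjusted p 1.62e-05). Klf8 had 1.56 ± 0.34 CPM against 8.11 ± 1.92, an increase of 2.37 (SE 0.25, adjusted p 5.61e-05). Their counts were low, from 39 to 716 for Klf12 and from 37 to 246 for Klf8 over the 8 libraries. The corepressor Ctbp2 rose by 0.58 (adjusted p 0.0134) under TMM but was at −0.007 under total counts, and Ctbp1 was at −0.47 (adjusted p 0.0602, and 0.0149 with the animal as a replicate block). Gm20033 overlaps 3.59% of the exon length of Klf3 on the other strand.

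Klf9, Klf10, Klf11, Klf13 and Klf16 are known to recruit the Sin3 corepressors through a short helix near the amino end. Klf9, which is induced by glucocorticoids in many tissues, had the largest decrease of the 10 in the fit to all 8 libraries, while in females only that of Klf2 was larger (−1.32 against −1.29). It was at 313, 230.0, 353 and 406 CPM in Low (Female1, Female2, Male1, Male2) and at 87.4, 123, 90.4 and 159 CPM in High. The groups did not overlap, and the change was −1.49 (SE 0.22, adjusted p 0.000398), a 2.81-fold lower level. By animal it ran from −0.91 in Female2 to −1.97 in Male1.

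Klf13 is closely related to Klf9. Its level was 197, 144, 211 and 211 CPM in Low and 66.7, 79.1, 76.3 and 106 CPM in High, again without overlap. It fell by 1.22 on the log2 scale (SE 0.17, adjusted p 0.000233). The count of Klf9 was 1.59 to 1.92 times that of Klf13 in Low and 1.18 to 1.55 times in High. The log2 ratio changed by −0.29 ± 0.19 (SD, n = 4 animals), so Klf9 fell further than Klf13 in 4 of 4 animals (exact permutation test, two-sided, p 0.0286, adjusted 0.0286). When single libraries were left out, the p of this ratio reached 0.0857 (without Low Male2) and was 0.0571 without any other Low library.

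Klf10 and Klf11 are a pair of early TGF-beta response genes. Klf10 was at 87.2, 142, 98.6 and 121 CPM in Low (Female1, Female2, Male1, Male2) and at 81.6, 139, 91.0 and 145 CPM in High. The animals kept nearly their own level in both fractions, and the log2 fold change was 0.024 (SE 0.24, adjusted p 0.949). Under total counts it was −0.58 with an adjusted p of 0.0288, in a range of 0.0288 to 0.991 over all alternatives.

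Klf11 was at 104, 92.1, 112 and 119 CPM in Low and at 47.3, 78.1, 50.5 and 93.5 CPM in High, with the High library of Male2 just above the Low library of Female2. Under total counts Low, at 120 to 138 CPM, did not overlap High, at 44.6 to 63.5 CPM. With TMM scaling Klf11 was called lower at −0.66 (SE 0.22, adjusted p 0.0300). Without the High library of Female1 the change was −0.53 (adjusted p 0.0799) and without that of Male1 −0.50 (adjusted p 0.0758), in a range of 0.000131 to 0.232. Klf10 and Klf11 did not move alike. The log2 ratio of their counts rose by 0.72 ± 0.40 (SD, n = 4 animals), from 0.052 ± 0.400 to 0.77 ± 0.10, in 4 of 4 animals (exact permutation test, two-sided, p 0.0286, adjusted 0.0286). Without any 1 of the High libraries its p was 0.0571. Klf16 had 63.6 ± 14.6 CPM in Low against 63.4 ± 24.2 in High (SD, n = 4 per fraction), with a change of 0.0023 (adjusted p 0.995) under TMM and a call lower at −0.61 (adjusted p 0.0237) under total counts.

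Of the remaining Klf genes, Klf15 had the largest fold decrease. It had 12.8 ± 6.3 CPM in Low against 0.860 ± 0.183 in High (SD, n = 4 per fraction) and 13 to 800 counts over the 8 libraries, a change of −3.86 (SE 0.36, adjusted p 3.01e-05). Klf1, the erythroid member, had 7 to 23 counts and was not called, at −0.049 (adjusted p 0.930). Klf14 had 0 counts in every library and Klf17 at most 4, so neither was tested. Of the 5 tested genes outside the 10, 2 were higher and 1 lower, with a median of 0.0023, where 23.4% of all tested genes were higher and 25.3% lower. Under total counts 2 were higher and 2 lower, with a median of −0.61, where 12.6% and 49.1% of all genes were.

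Levels of the 10 members were compared per kilobase of exon, where exon length is the union of all annotated transcripts, and the places given are among these 10. In Low, Klf6 came first at 672 ± 152 CPM per kb, then Klf4 at 387 ± 92, Klf5 at 179 ± 17 and Klf9 at 67.6 ± 15.4 (SD, n = 4 per fraction). In High, Klf4 came first at 1183 ± 356 CPM per kb, then Klf6 at 395 ± 69, Klf5 at 164 ± 28 and Klf3 at 50.8 ± 14.2. These first 4 places were held by the same genes in all 4 libraries of a fraction, and ranks within a library do not depend on the scaling. In Low the order of the next 5 genes differed between libraries. These were Klf10 at 26.8 ± 5.8, Klf13 at 25.3 ± 4.2, Klf11 at 24.6 ± 2.6, Klf2 at 21.8 ± 2.5 and Klf3 at 18.5 ± 2.9 CPM per kb. In High, Klf10 at 27.3 ± 7.8, Klf9 at 23.8 ± 6.9 and Klf11 at 15.5 ± 5.1 followed Klf3 in this order in every library, although their SDs overlap. The last 3 places, held by Klf13 at 10.9 ± 2.2, Klf2 at 9.23 ± 2.91 and Klf7 at 7.48 ± 0.43, varied between libraries.

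Of the summed CPM per kb of all 17 Klf genes, Klf4 took 26.5% ± 4.4 in Low and 61.2% ± 4.0 in High (SD, n = 4 each). Klf6 took 45.8% ± 6.3 and 21.1% ± 3.4. The lowest share of Klf4 in a High library was 58.1% in Female1 and its highest share in a Low library was 32.7% in Male2. Klf5 took 12.4% ± 1.2 and 8.66% ± 0.73. All Klf genes together took 0.7497% ± 0.0765 of the counts in Low and 0.590% ± 0.063 in High (SD, n = 4 per fraction), with overlap. With TMM scaling the direction was the opposite, at 6190 ± 867 summed CPM for Low against 7315 ± 1696 for High, again with overlap, so the family total has no direction that holds under both scalings.

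**Figure D5:**
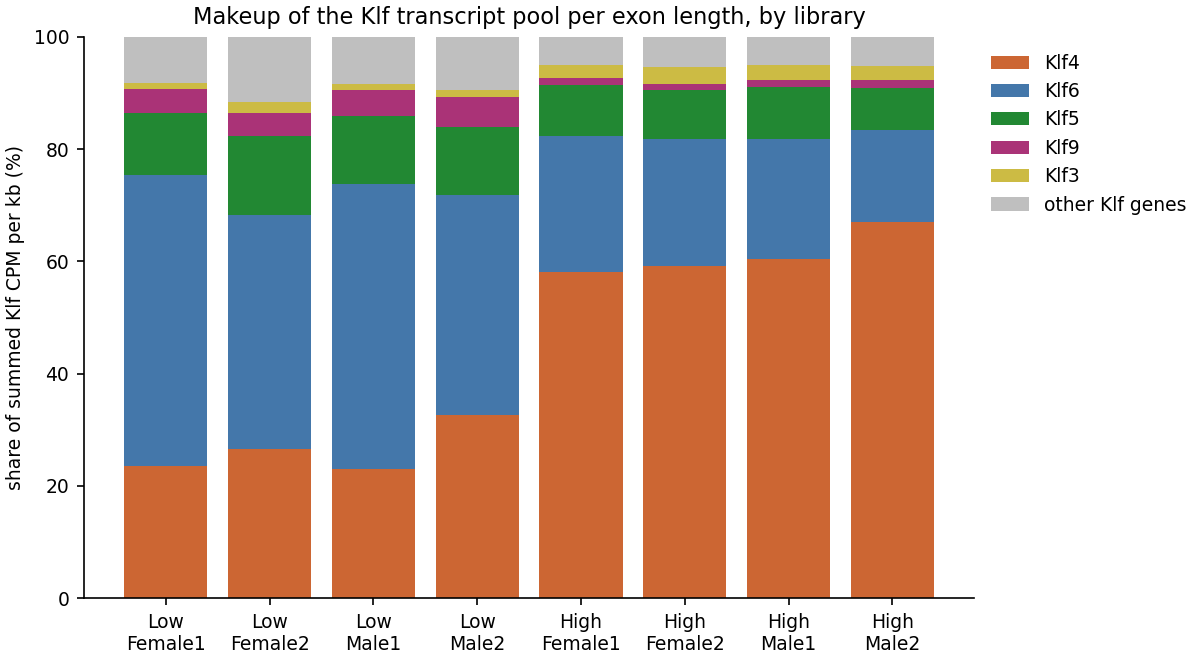
Share of each Klf gene in the summed Klf CPM per kb of exon, for the 4 Low and 4 High libraries. Klf6 holds 39.1% to 51.7% in Low and 16.3% to 24.2% in High, and Klf4 holds 23.1% to 32.7% and 58.1% to 67.0%.

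The High libraries were not equal among themselves. In 9 of the 10 members, all but Klf7, both Female2 and Male2 had a higher CPM in High than both Female1 and Male1, which held for 36.7% of all tested genes. The TMM factors of these libraries were 0.792 for Female2 and 0.679 for Male2, against 0.944 for Female1 and 0.896 for Male1. Under total counts the order held for 6 of the 10 members and for 10.4% of all tested genes. The summed suprabasal markers were also higher in High in Female2 and Male2 (185281 and 240579 CPM) than in Female1 and Male1 (140092 and 141447). The fibroblast markers were lower in them (160 and 55.4 against 472 and 340 CPM), as were those of endothelium, leukocytes and muscle. The basal markers did not split this way. The part of the scaling factors and of cell types in the spread of the High libraries was not tested. Gastric epithelial transcripts were high only in Female2 by the 7 markers listed, at 17.3 CPM in Low and 109 in High against at most 1.34 CPM in the other 6 libraries. Without both libraries of Female2 the same numbers of members were called, 2 higher and 5 lower.

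Sex was the other condition of the design. An interaction of sex and fraction was called for 0 of the 10 members and 0 of 17344 genes (0% called) by edgeR's quasi-likelihood test. At an unadjusted p under 0.05 there were 0 members and 19 genes, and DESeq2 called 0 with 0 members and 5 genes at that level. The male minus female difference of the change ran from −0.35 (SE 0.47) for Klf6 to 0.33 (SE 0.49) for Klf2. With 2 animals of each sex, differences of this size were within the error. Fewer genes fell under an unadjusted 0.05 than such a threshold passes by chance. The test was thus conservative, and its 0 calls do not show that sex has no part.

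The genes around the family were described with lists of cofactors, degradation factors and upstream pathways. Every count of called genes in these lists is to be read against all tested genes, of which 23.4% were higher and 25.3% lower under TMM, and 12.6% and 49.1% under total counts. Of 9 Sp factors, the closest relatives of the Klf proteins, 5 were tested. Sp6 had 0.975 ± 0.491 CPM in Low against 12.6 ± 3.8 in High (SD, n = 4 per fraction), an increase of 3.68 (adjusted p 3.28e-05). Sp4 had 9.11 ± 0.53 CPM against 1.85 ± 0.17, a change of −2.30 (adjusted p 1.52e-05). Sp1, Sp2 and Sp3 were at −0.29, −0.22 and −0.40, and Sp3 had an adjusted p of 0.0886, or 0.0300 with the animal as a replicate block. Under total counts these 3 were called lower, at −0.85, −0.81 and −0.97. Sp5, Sp7, Sp8 and Sp9 had at most 4 counts.

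Of the 12 cofactors 3 were called higher and 2 lower, with a median of −0.006, and under total counts 1 was higher and 8 lower, with a median of −0.58. The acetyltransferase Kat2b rose by 1.06 (adjusted p 0.000694). Sin3a fell by 0.78 (adjusted p 0.00181), while Sin3b rose by 0.55 (adjusted p 0.00514) under TMM and was at −0.013 under total counts. Of 7 ubiquitin ligase components linked to Klf turnover 2 were higher and 3 lower, with a median of 0.17, and under total counts 1 was higher and 4 lower, with a median of −0.41. Smurf1 rose by 1.10 (adjusted p 0.000690) and Fbxo32 fell by 2.13 on the log2 scale (adjusted p 0.000801). The other calls were Btrc and Fbxw7, lower at −0.97 and −0.42, and Vhl, higher at 0.71 under TMM but not called under total counts (0.14). Smurf2 was at 0.17 and was not called. Wwp1, a ligase for Klf2 and Klf5, was at 0.48 (adjusted p 0.0719, and 0.0121 with the replicate block).

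The ERK5 cascade induces Klf2 and Klf4 in endothelium. Of its 7 listed genes 1 was higher and 1 lower, with a median of 0.10, and under total counts 0 were higher and 3 lower, with a median of −0.36. Map3k3 rose by 0.44 (adjusted p 0.0176) under TMM and was at −0.13 under total counts, and Map3k2 fell by 0.45 on the log2 scale (adjusted p 0.0328). The kinases Map2k5 and Mapk7 themselves were at −0.54 (adjusted p 0.111, and 0.00411 with the replicate block) and 0.35 (adjusted p 0.0790). The target factors Mef2a, Mef2c and Mef2d, at −0.15, 0.10 and 0.38, were not called.

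Of 11 TGF-beta genes 0 were higher and 7 lower, with a median of −0.90 beside −0.09 for all genes, and under total counts 0 were higher and 9 lower, with a median of −1.45 beside −0.64. Tgfb2 had the largest decrease, with 4.85 ± 1.29 CPM in Low against 0.952 ± 0.420 in High (SD, n = 4 per fraction), a change of −2.36 (adjusted p 0.000379). The receptor gene Tgfbr2 fell by 2.25 on the log2 scale and the mediator Smad3 by 1.38. The feedback genes Smad7 and Skil were at 0.14 and −0.12 and were not called. Of the pair of early response genes, Klf10 was not called and Klf11 was called lower, at −0.66. With the replicate block Smad2 was called as well, higher (adjusted p 0.0209).

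Of 6 genes of the glucocorticoid response 5 were tested, 1 called higher and 2 lower under both scalings, with a median of 0.17 under TMM and −0.42 under total counts. Zbtb16, with at most 26 counts, was not tested. The receptor gene Nr3c1 had 78.9 ± 8.3 CPM in Low against 32.5 ± 4.2 in High (SD, n = 4 per fraction), a change of −1.29 (adjusted p 6.14e-05). The target Tsc22d3 fell by 1.08 on the log2 scale, while the target Fkbp5 rose by 1.75 (adjusted p 4.42e-05), and Per1 was at 0.17 (adjusted p 0.652). Sgk1 was at 0.50 (adjusted p 0.0720, and 0.0331 with the replicate block).

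Immediate early and heat shock genes were measured because Klf2, Klf4, Klf6 and Klf10 can be induced by cell isolation. Of 16 such genes 2 were higher and 3 lower, with a median of 0.12 beside −0.09 for all genes. Under total counts 1 was higher and 7 lower. Among them were Fos at 1967 ± 546 CPM for Low and 2551 ± 1137 for High and Jun at 4908 ± 771 and 2756 ± 744 (SD, n = 4 each). Btg2 rose by 1.41 (adjusted p 0.00251) and Socs3 fell by 2.45 on the log2 scale (adjusted p 5.19e-05). Jun fell by 0.84 (adjusted p 0.0132), and Fos was at 0.37 (adjusted p 0.420). The part of cell isolation in the Klf levels was not tested.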

How the data were processed

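The authors deposited unnormalised counts by gene symbol in 1 table of 8 libraries. Its values are whole numbers and its column totals differ. Per the submitters' processing notes, STAR 2.7.3, DESeq2 and the build GRCm38 were named. The counting tool, annotation, strandedness and filters are not given in the sources used here. The members and lists were chosen with earlier results of these data known.

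The test was edgeR 4.0.16 under R 4.3.3 (filterByExpr, TMM, glmQLFit, glmQLFTest, all 8 libraries, sex as covariate, Benjamini-Hochberg threshold 0.05). Log2 CPM used a prior count of 2, and ratios a pseudocount of 0.5. Alternatives were RLE factors, total counts, other filters, robust dispersion, DESeq2 1.42.0, limma-voom (limma 3.58.1), no covariate, the animal as replicate block, and libraries, animals or a sex left out. The fits were tested on simulated data in which few genes changed, equally up and down, without an animal effect. This did not test the scaling or the pairing of the real libraries. Both libraries of an animal were taken as a pair from their titles and the shared cell suspension. Deviations of the paired libraries from their fraction means correlated across genes at 0.43 (Female1), 0.32 (Female2), −0.016 (Male1) and 0.28 (Male2), and those of libraries of different animals at −0.37 to 0.35.

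Named were all members, every tested Klf gene, and of each list the called gene with the largest rise and fall and, where of use, defining markers and genes of lists of up to 9; Tgfbr2, Smad3, Smad7, Skil, Smad2, Ctbp1, Ctbp2, Sin3a, Sin3b, Jun and Fos were added after their values were seen. A result among those the rule would name is not reported here. Coordinates, exon lengths and overlaps came from GENCODE M21 (GRCm38), in which 53388 of 55276 symbols were found; at most 0.35% of the 50-base stretches of a member occurred in transcripts of another gene. A list of 7 muscle markers was also measured, and 0 were called. As a check for duplicate libraries, the counts of each pair of libraries of a fraction were compared, and none were identical within sampling noise.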

Additional observations from a re-analysis of the deposited data

How the results depend on the processing

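Over 23 alternatives each, Klf2, Klf3, Klf4, Klf9 and Klf13 kept their direction and stayed past the threshold. With the animal as a replicate block, 2 members were called higher and 5 lower, as without it, and 0 members by the sex interaction. The members called lower numbered 3 without the animal Female1, without Male1 and with females only, and 3 to 5 with 1 library left out. The genes called overall fell to 4420 with females only and 4739 with males only, where 2 animals remain. Klf10 changed sign, to −0.58 under total counts, −0.018 without a low-count filter, −0.018 with at least 10 counts in every library and −0.020 without Male2, and ran from −0.14 to 0.19 with 1 library left out. Klf7 was at 0.14 without Female1 and 0.062 with females only, and ran from −0.32 to 0.19 with 1 library left out. Klf5 was at 0.045 with females only. Permuting signs within animals (the paired test) left the ratio differences at 1.73 for Klf4 to Klf5, 2.88 for Klf4 to Klf2, −0.29 for Klf9 to Klf13 and 0.72 for Klf10 to Klf11, with an exact permutation p of 0.125, the smallest 4 pairs can give. With 1 library left out, the last 2 ran from −0.35 to −0.22 and from 0.62 to 0.91. In fits with libraries left out, their number and which ones were dropped cannot be told apart. The causes of these differences were not tested.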
